A study of Mus musculus with 18 samples.

Results

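The genes described here encode steroid dehydrogenases and reductases of mouse liver: Hsd3b5, Hsd11b1, Hsd17b2, Hsd17b6, Hsd17b13, Srd5a1, Akr1c6, Akr1c19 and Akr1c14. They were taken by name, and each gene was read from the probe set annotated to it with the highest mean over all 18 arrays. A probe set was named for 8 of the 9 genes. Srd5a1, a steroid 5alpha-reductase, had none in the annotation used and is not analysed here. All 8 passed the filter on dim probe sets, and they make up 8 of the 12578 genes tested and of the 18193 genes named on the array.

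Knockout livers carried the genotype Alb-Cre+/-/POR-lox+/+ and control livers Alb-Cre-/-/POR-lox+/+, so that both genotypes held the floxed allele of Por and only the knockout held Cre. Por encodes NADPH-cytochrome P450 reductase, which passes electrons from NADPH to microsomal P450 enzymes, and the albumin promoter drives Cre in hepatocytes. No probe set was named for Por, and the deletion itself is not analysed here. All mice were male and were killed at 12 weeks after a 4 h fast, having eaten a synthetic diet for 8 weeks from the age of 4 weeks. The fat of the diet was fish/fungal oil (menhaden oil with ARASCO oil), canola oil or lard, and every diet had added cholesterol and sodium cholate. The sample labels give 7% fat and the series text gives 6%. The 6 combinations of genotype and diet had 3 arrays apiece, each array hybridised with pooled liver RNA of 3 mice, or 9 mice a group. P-values therefore measure the spread between pools. The array was the Affymetrix Mouse Genome 430 2.0, and values are log2 expression after RMA. Array medians ran from 5.23 to 5.29 and correlations within groups from 0.993 to 0.997.

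Steroid dehydrogenases move hydrogen between a steroid and NAD(H) or NADP(H), and by oxidising or reducing single positions of the steroid ring they switch androgens, estrogens and glucocorticoids between active and weak forms. The liver uses them, with P450s, reductases and sulfotransferases, to clear steroids from blood, and several of the mouse genes are expressed differently in males and females under the control of growth hormone. Some belong to the short-chain dehydrogenase family (the Hsd17b genes here, and Hsd11b1), Hsd3b5 to the 3beta-hydroxysteroid dehydrogenase family, and the Akr1c genes to the aldo-keto reductases.

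One of the 8 genes differed with genotype: Hsd3b5 fell in knockout livers, to 72.0% of the control level averaged over the diets. The other 7 did not pass the test for genotype, and for Hsd17b13, Akr1c6, Akr1c19 and Akr1c14 the 95% interval of the averaged log2 change lay between -0.19 and 0.17. With diet, Akr1c19 rose on fish/fungal oil against lard in control livers. Over both genotypes Akr1c19 and Hsd17b6 rose on fish/fungal oil against lard, and Akr1c19 and Hsd17b2 rose on it against canola oil. Those comparisons over both genotypes were added after the values had been seen. Tests are limma's moderated tests from 1 fit of all 18 arrays, with Benjamini-Hochberg adjustment over the 12578 genes and a threshold of 0.05 on the adjusted p, and errors of log2 changes are standard errors.

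**Figure D1:**
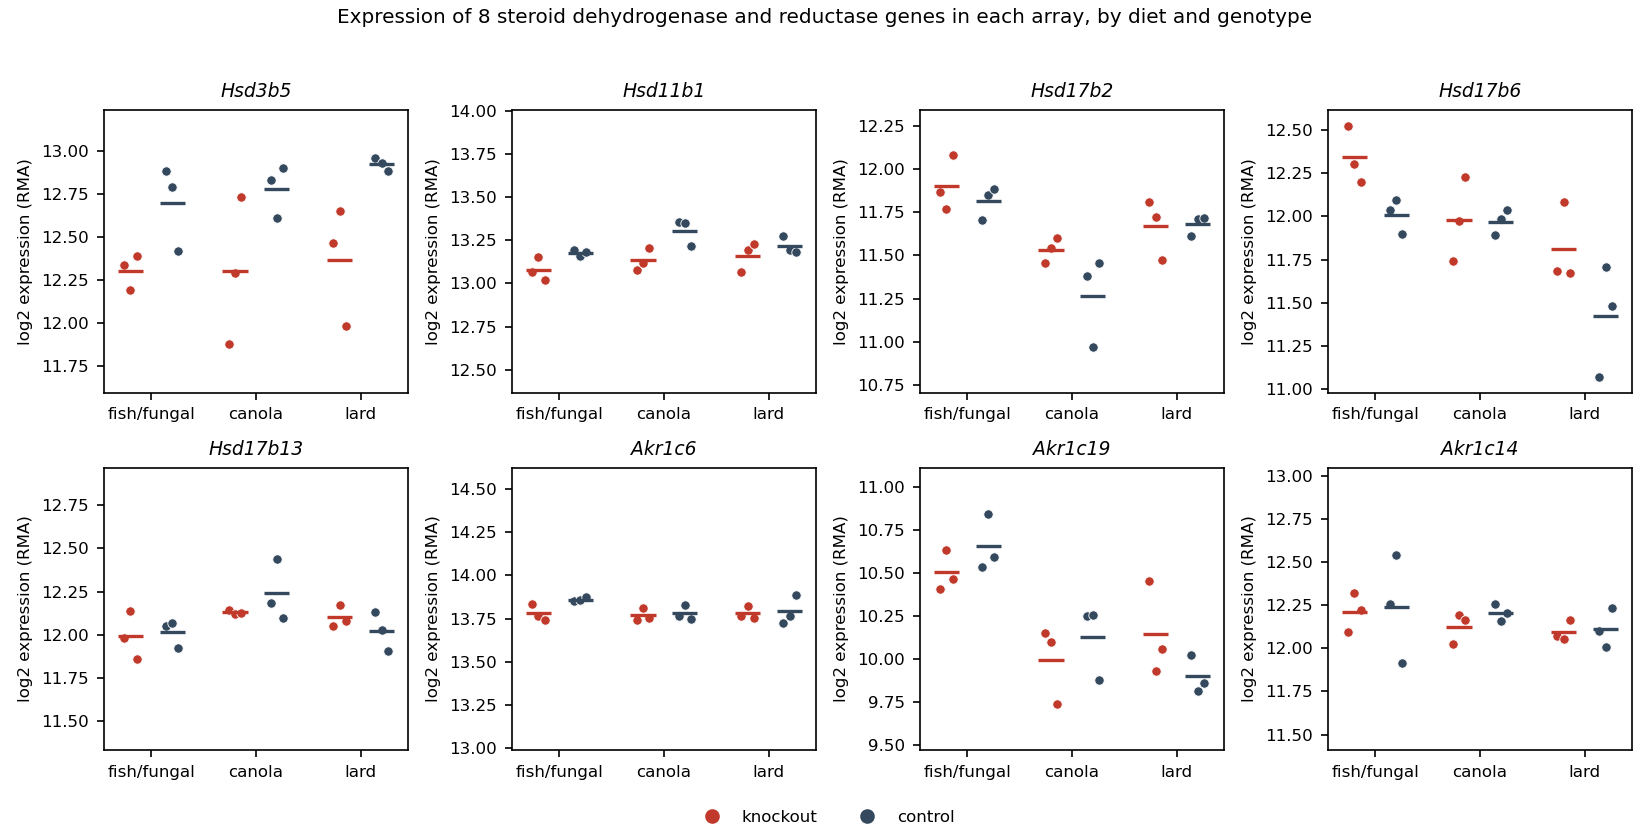
Log2 expression (RMA) of the 8 genes in each array, by diet and genotype, with knockout pools in red, control pools in blue and a bar at each group mean (n = 3 pools a group). Every panel spans the same log2 range. Hsd3b5 lies lower in knockout than in control pools on each diet by group mean, and Akr1c19 and Hsd17b6 lie highest on fish/fungal oil.

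The promoters of 3 genes are shown because their genes carry the differences above: Hsd3b5 for genotype, Akr1c19 and Hsd17b6 for fish/fungal oil against lard. Each is 300 bases on the gene's strand, 250 before the start base and 50 from it on, from RefSeq on mouse build GRCm38.p6. Capitals mark matches to 6 short motifs searched on both strands: TTCNNNGAA (bound by STAT5), TGACNNNGC (core of the antioxidant response element), AGGTCA (nuclear receptor half-site), AGAACA (glucocorticoid receptor half-site), TATAAA and CCAAT. The motifs were chosen after the values had been seen.
Hsd3b5 promoter, chr3:98645485-98645784, minus strand: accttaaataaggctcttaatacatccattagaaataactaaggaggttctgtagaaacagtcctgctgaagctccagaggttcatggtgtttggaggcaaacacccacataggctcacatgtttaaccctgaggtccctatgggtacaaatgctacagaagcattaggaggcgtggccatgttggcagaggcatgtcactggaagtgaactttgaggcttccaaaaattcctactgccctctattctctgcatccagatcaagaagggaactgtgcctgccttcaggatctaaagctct
Akr1c19 promoter, chr13:4233490-4233789, plus strand: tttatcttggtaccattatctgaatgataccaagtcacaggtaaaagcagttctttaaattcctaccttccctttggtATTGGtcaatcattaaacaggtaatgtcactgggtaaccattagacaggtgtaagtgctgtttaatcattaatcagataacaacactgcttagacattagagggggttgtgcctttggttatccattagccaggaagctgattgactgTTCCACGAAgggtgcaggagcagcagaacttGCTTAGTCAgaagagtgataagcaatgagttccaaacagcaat
Hsd17b6 promoter, chr10:128007562-128007861, minus strand: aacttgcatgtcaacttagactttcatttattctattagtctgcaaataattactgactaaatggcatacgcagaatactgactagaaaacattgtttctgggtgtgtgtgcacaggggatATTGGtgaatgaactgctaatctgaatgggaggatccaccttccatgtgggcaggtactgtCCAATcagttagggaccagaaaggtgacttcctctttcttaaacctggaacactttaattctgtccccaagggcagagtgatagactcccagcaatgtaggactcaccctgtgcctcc

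Counted from +1 at the start base, the Akr1c19 window held TTCNNNGAA at -24 to -16, where the letters match on both strands. It also held TGACNNNGC at 8 to 16 on the opposite strand and CCAAT at -172 to -168. The Hsd17b6 window shown held CCAAT at -129 to -125 and at -68 to -64. The table gives this gene a second window, chr10:128007459-128007758, which overlaps the first and, counted from its own start base, held CCAAT at -232 to -228, -171 to -167 and -17 to -13. The Hsd3b5 window held none of the 6. TTCNNNGAA was in 8.3% of the 32851 promoters of the same table, TGACNNNGC in 12.4% and CCAAT in 37.4%, while AGGTCA was in 16.3%, AGAACA in 19% and TATAAA in 13.6%. A match describes letters, not binding. The table held 8 windows for 7 of the 8 measured genes, not for Hsd17b2, and TTCNNNGAA was in no window but that of Akr1c19.

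Hsd3b5 is a male-specific 3beta-hydroxysteroid dehydrogenase of mouse liver that acts as a 3-ketosteroid reductase. Its log2 level on fish/fungal oil was 12.34, 12.19 and 12.39 in the knockout pools, against 12.88, 12.79 and 12.42 in the control pools. On canola oil it was 11.88, 12.29 and 12.73 in knockout pools and 12.83, 12.61 and 12.90 in control pools. On lard it was 12.46, 12.65 and 11.98 in knockout pools and 12.95, 12.93 and 12.88 in control pools. The knockout pools lay below every control pool of the same diet on fish/fungal oil and on lard, and the groups overlapped on canola oil through 1 knockout pool, so that 8 of 9 knockout pools lay below all controls of their diet. Knockout pools lay below all controls for 5.18% of all genes on fish/fungal oil and for 6.84% on lard. The spread differed between groups: the SD was 0.102, 0.427 and 0.343 in knockout livers on fish/fungal, canola and lard, and 0.245, 0.153 and 0.0382 in control livers.

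Averaged over the diets, Hsd3b5 fell by 0.47 ± 0.10 on the log2 scale in knockout livers (95% interval -0.70 to -0.25, limma adjusted p = 0.0135). It was the only one of the 8 genes past the threshold, beside 4.57% of all genes tested that passed in either direction and 0.755% that passed as lower. The call held with each of the 18 arrays left out in turn (log2 change -0.55 to -0.40). Within single diets the change was -0.39 ± 0.18 on fish/fungal oil, -0.48 ± 0.18 on canola oil and -0.55 ± 0.18 on lard, with limma adjusted p of 0.634, 0.684 and 0.208. None of the 8 genes was called on any one diet, where the share of all genes called was 0.294% on fish/fungal oil, 0.0636% on canola oil and 0.986% on lard. The knockout effects on Hsd3b5 did not differ detectably between diets (limma F test on the interaction, adjusted p = 1), and the effect on fish/fungal oil minus that on lard was 0.16 ± 0.26. No diet comparison called Hsd3b5: its log2 change on fish/fungal oil against lard was -0.06 ± 0.18 in knockout livers and -0.22 ± 0.18 in control livers.

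In whole liver, fewer cells of a type and less RNA per cell cannot be told apart. Of 6 hepatocyte markers (Alb and others) none was called between knockout and control livers, and their mean log2 level ran from 13.93 to 14.03 in knockout arrays and from 13.96 to 14.07 in control arrays. Among all genes tested, 3.82% were called higher in knockout livers and 0.755% lower. Of 12 markers of Kupffer cells and macrophages, 4 were called higher in knockout livers (Cd68, Lyz2, C1qa and C1qb) and none lower, with a mean log2 level of 9.01 to 9.94 in knockout arrays and 8.68 to 9.41 in control arrays. Of 9 markers of pericentral hepatocytes 4 were higher (Cyp1a2, Rhbg, Oat and Lhpp), at 10.27 to 10.70 in knockout arrays and 10.00 to 10.47 in control arrays, and none of 6 periportal markers was called. None of 8 stellate, 7 endothelial, 3 cholangiocyte, 3 lymphocyte or 3 adrenal markers tested was called. At an unadjusted p under 0.05 by limma, 9 Kupffer cell and macrophage, 5 stellate and 2 endothelial markers were higher and none lower. Of all genes 18% passed at that level in either direction. The median log2 change was 0.33 for the Kupffer cell and macrophage markers and 0.32 for the stellate markers. The part of these markers in the fall of Hsd3b5 was not tested.

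The 3 genes that followed Hsd3b5 most closely over the 18 arrays, by Pearson's r of log2 values and given as a description, were Serpina4-ps1 (r = 0.92), Adh6-ps1 (r = 0.88) and Nudt7, a peroxisomal coenzyme A diphosphatase (r = 0.87). The likeness was also seen among pools of the same group: with group means removed, r was 0.84, 0.84 and 0.82. These genes were picked by r over the same arrays, so that likeness and a shared fall with genotype follow in part from the choice. All 3 fell in knockout livers, with log2 changes of -1.495 ± 0.30 for Serpina4-ps1 (limma adjusted p = 0.00735), -0.58 for Adh6-ps1 (adjusted p = 0.0141) and -0.22 ± 0.05 for Nudt7 (adjusted p = 0.0173). Knockout canola pool 3, which had the highest Hsd3b5 level of the knockout pools, also had the highest Serpina4-ps1 (8.94) and Adh6-ps1 (7.52) of them. Control fish/fungal pool 3, the lowest control for Hsd3b5, was the lowest control for Serpina4-ps1 (7.64) and Nudt7 (12.94).

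**Figure D2:**
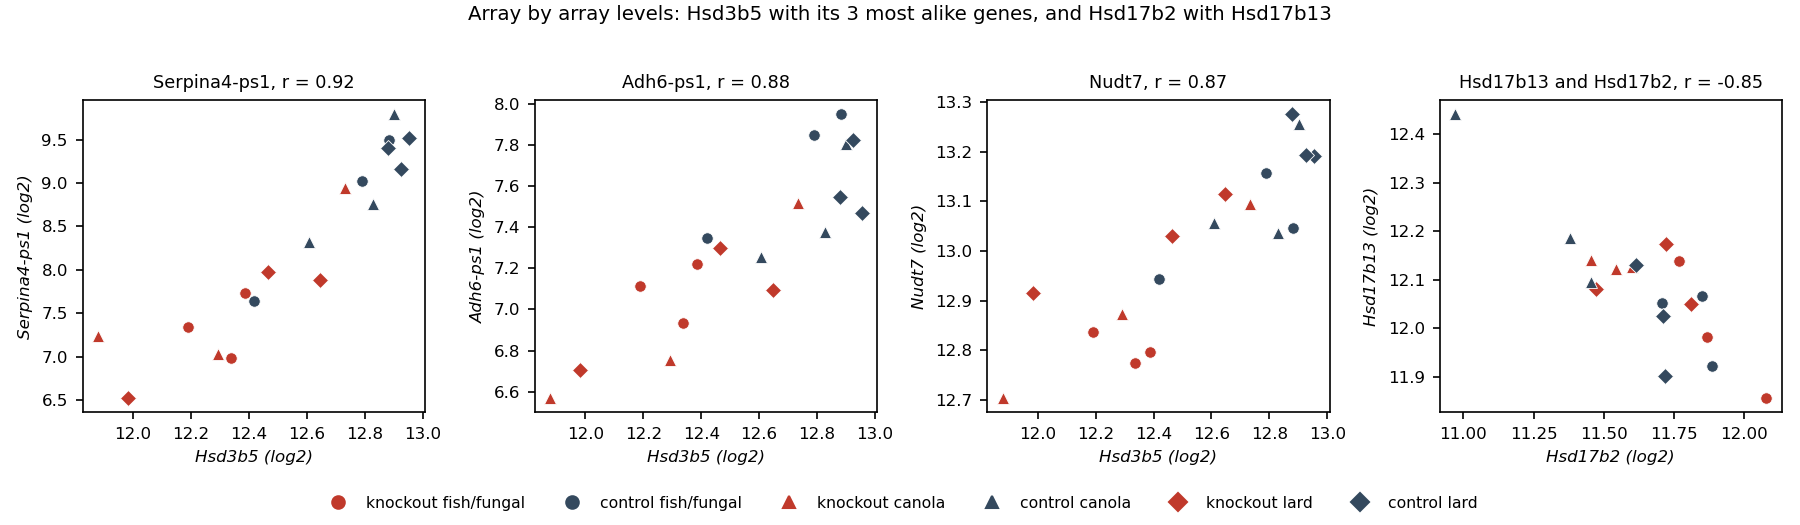
Log2 levels in each of the 18 arrays: Hsd3b5 (horizontal axes) against Serpina4-ps1, Adh6-ps1 and Nudt7, and Hsd17b2 against Hsd17b13 in the last panel. Colour gives the genotype and shape the diet. The first 3 panels rise (r = 0.92, 0.88 and 0.87) and the last falls (r = -0.85), with 1 control canola pool at its far upper left.

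Hsd11b1 reduces inactive 11-dehydrocorticosterone to corticosterone in the endoplasmic reticulum, with NADPH made there by H6pd. Its log2 level on fish/fungal oil was 13.07, 13.15 and 13.02 in knockout pools, against 13.19, 13.16 and 13.18 in control pools. On canola oil it was 13.08, 13.12 and 13.21 in knockout pools and 13.35, 13.35 and 13.22 in control pools, and on lard 13.06, 13.19 and 13.23 in knockout pools and 13.27, 13.19 and 13.18 in control pools. The groups did not overlap on fish/fungal and canola oil and overlapped on lard. In that direction 5.18% of all genes separated on fish/fungal oil and 4.24% on canola oil. The averaged change was -0.11 ± 0.04 (95% interval -0.18 to -0.03), small and short of the threshold (limma adjusted p = 0.0952). H6pd itself changed by 0.11 ± 0.09 (adjusted p = 0.622).

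Hsd17b6 oxidises 3alpha- and 17beta-hydroxysteroids and retinol. In livers fed fish/fungal oil its log2 level was 12.53, 12.30 and 12.20 in knockout pools, against 12.04, 12.10 and 11.90 in control pools. On canola oil it was 11.74, 11.97 and 12.23 in knockout pools and 11.89, 11.98 and 12.03 in control pools. On lard it was 11.69, 12.08 and 11.67 in knockout pools and 11.07, 11.71 and 11.48 in control pools. The 6 fish/fungal pools all lay above every lard pool of the same genotype. Of all genes 4.81% separated that way in knockout livers, 6.2% in control livers and 0.827% in both genotypes. Knockout pools lay above all controls on fish/fungal oil alone, where 5.72% of all genes separated that way. The mean order of the 6 groups ran from knockout fish/fungal to control lard, and of the 5 neighbouring pairs only the first 2 groups, knockout and control on fish/fungal oil, did not overlap.

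Against lard, fish/fungal oil gave Hsd17b6 a log2 change of 0.53 ± 0.15 in knockout livers (limma adjusted p = 0.187) and 0.59 ± 0.15 in control livers (adjusted p = 0.0987), each short of the threshold. Over both genotypes it rose 1.48-fold (log2 change 0.56 ± 0.11, 95% interval 0.33 to 0.79, limma adjusted p = 0.0072). With the mean of both its probe sets the change was 0.26 and the adjusted p 0.0632. The second probe set (mean log2 level 4.40) lay above the array median in 0 of 18 arrays. The averaged genotype change was 0.25 ± 0.09 and did not pass (limma adjusted p = 0.129), at 0.33 on fish/fungal oil, 0.01 on canola oil and 0.39 on lard. These 3 genotype effects did not differ detectably (limma F test on the interaction, adjusted p = 1). The genes most alike over the arrays were Plekhg5 (r = 0.82), Gsto1, a glutathione transferase (r = 0.81), and Gpx1, a glutathione peroxidase (r = 0.77).

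Akr1c19 is an NAD-dependent hydroxysteroid dehydrogenase of the mouse Akr1c cluster. With fish/fungal oil its log2 level was 10.41, 10.63 and 10.47 in knockout pools, against 10.54, 10.84 and 10.59 in control pools. On canola oil it was 10.15, 10.10 and 9.74 in knockout pools and 10.25, 10.26 and 9.88 in control pools. On lard it was 10.46, 9.93 and 10.06 in knockout pools and 10.02, 9.81 and 9.86 in control pools. Fish/fungal pools lay above all canola pools in either genotype and above all lard pools in controls, while in knockout livers 1 lard pool fell among the fish/fungal ones. Against canola oil 4.67% of all genes separated upward in knockout livers, 6.27% in control livers and 0.835% in both genotypes. Against lard 6.2% did in control livers.

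In control livers Akr1c19 rose 1.69-fold on fish/fungal oil against lard (log2 change 0.76 ± 0.15, 95% interval 0.45 to 1.07, limma adjusted p = 0.0178). It was the 1 called gene of the 8, beside 0.716% of all genes called in either direction and 0.0954% called higher. The call was lost without control lard pool 2 (adjusted p = 0.1), control lard pool 3 (adjusted p = 0.0757), control fish/fungal pool 2 (adjusted p = 0.102) or control fish/fungal pool 3 (adjusted p = 0.054), with log2 changes between 0.66 and 0.82 over all 18 arrays left out. In knockout livers the change was 0.35 ± 0.15 (limma adjusted p = 0.481), and none of the 8 genes was called, beside 0.461% of all genes. The diet effect in knockout livers minus that in control livers was -0.40 ± 0.21, and the limma F test on the interaction did not call it (adjusted p = 1). Over both genotypes the rise was 1.47-fold against lard (log2 change 0.56 ± 0.10, limma adjusted p = 0.00608). Hsd17b6 and Akr1c19 were 2 of the 8 genes called there, beside 2.32% of all genes called and 0.541% called higher.

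Against canola oil the change of Akr1c19 was 0.51 ± 0.15 in knockout livers (limma adjusted p = 0.418) and 0.53 ± 0.15 in control livers (adjusted p = 0.219), and over both genotypes it rose 1.43-fold (log2 change 0.52 ± 0.10, adjusted p = 0.0196). That call was lost without knockout canola pool 3 (adjusted p = 0.06), control canola pool 3 (adjusted p = 0.0573) or control fish/fungal pool 2 (adjusted p = 0.0625). The genes most alike over the arrays were Nt5dc2 (r = 0.81), Abcg2, a drug exporter (r = 0.80), and Atg4d, an autophagy protease (r = 0.79). With group means removed r was 0.47, 0.48 and 0.59.

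**Figure D3:**
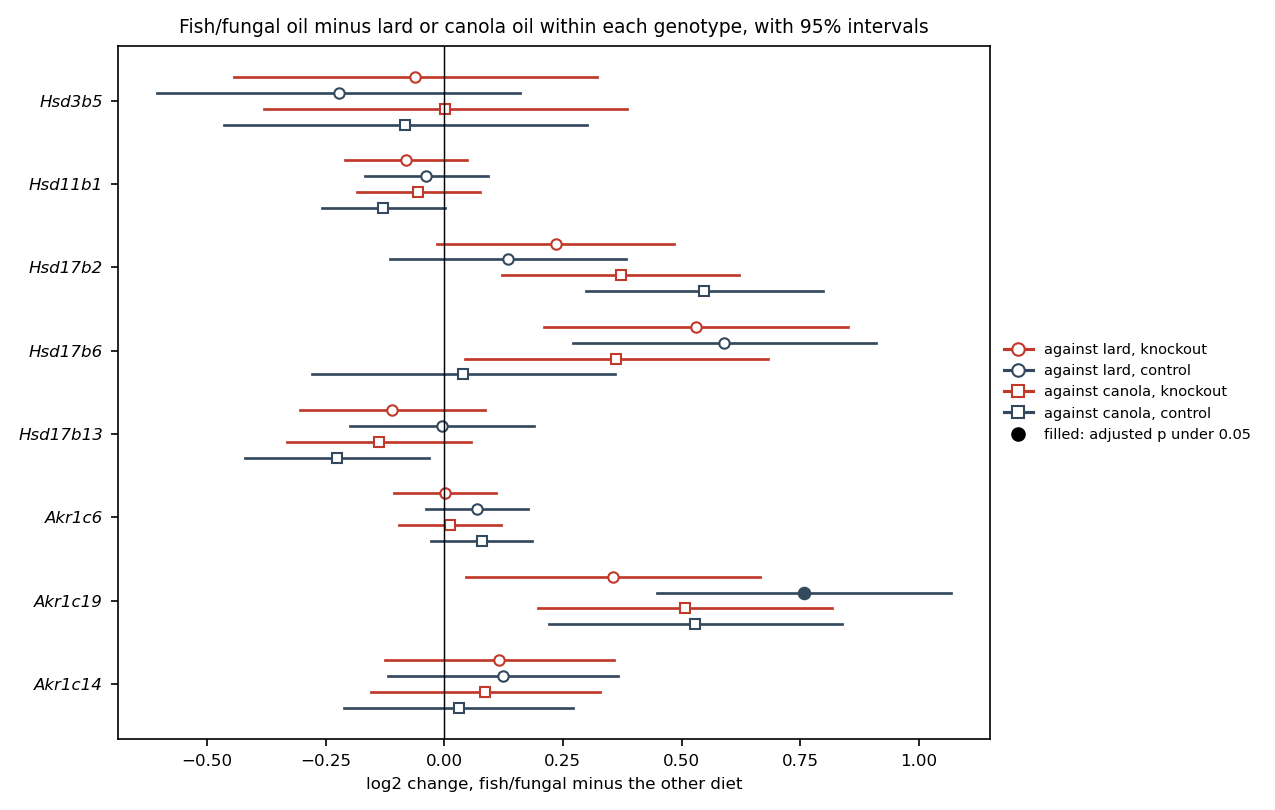
Log2 change of the 8 genes on fish/fungal oil minus lard (circles) or minus canola oil (squares), within knockout (red) and control (blue) livers, with 95% intervals from limma. Filled symbols have an adjusted p under 0.05. Akr1c19 in control livers against lard is the single filled symbol, at 0.76.

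Hsd17b2 oxidises estradiol and testosterone to estrone and androstenedione. On fish/fungal oil its log2 level was 11.87, 11.77 and 12.08 in knockout pools, against 11.71, 11.85 and 11.89 in control pools. On canola oil it was 11.46, 11.54 and 11.60 in knockout pools and 11.38, 10.97 and 11.45 in control pools. On lard it was 11.81, 11.72 and 11.47 in knockout pools and 11.61, 11.71 and 11.72 in control pools. The canola groups were lowest, and all 6 fish/fungal pools lay above all 6 canola pools. In both genotypes fish/fungal pools lay above all canola pools of their own genotype for 0.835% of all genes. On canola oil the knockout pools lay just above the controls, as did 7.04% of all genes.

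Over both genotypes Hsd17b2 rose 1.38-fold on fish/fungal oil against canola oil (log2 change 0.46 ± 0.08, 95% interval 0.28 to 0.64, limma adjusted p = 0.00963). Hsd17b2 and Akr1c19 were 2 of the 8 genes called in that comparison, beside 0.986% of all genes called and 0.294% called higher. Within a genotype the change was 0.37 ± 0.12 in knockout livers (limma adjusted p = 0.528) and 0.55 ± 0.12 in control livers (adjusted p = 0.0644, or 0.0463 without knockout lard pool 3), and none of the 8 was called with all arrays, beside 0.159% of all genes in knockout and 0.262% in control livers. Of the 12 Kupffer cell and macrophage markers 1, Lyz2, was called higher on fish/fungal than on canola oil over both genotypes. At an unadjusted p under 0.05 by limma 10 were higher and none lower, beside 9.68% of all genes in either direction. The log2 changes of the 12 ran from 0.20 to 0.67, with a median of 0.33 (all genes: 0.01). Mean log2 levels of these markers were 9.19 to 9.94 on fish/fungal oil and 8.68 to 9.45 on canola oil. Their part in the change of Hsd17b2 and Akr1c19 was not tested. The genotype change of Hsd17b2 was 0.11 ± 0.07 (limma adjusted p = 0.412). The genes most alike were Nucb2 (r = 0.87), which encodes the precursor of nesfatin, Dipk1a (r = 0.86) and Chid1 (r = 0.83).

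Canola oil against lard, over both genotypes, called none of the 8 genes and 0 of 12578 (0%) by limma, beside 852 genes (6.77%) at an unadjusted p under 0.05. Hsd17b2 changed by -0.27 ± 0.08 and Hsd17b6 by 0.36 ± 0.11 (limma adjusted p = 0.394 for each).

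Hsd17b13 is a lipid droplet protein, and its human counterpart has retinol dehydrogenase activity. Its log2 level was 11.86 to 12.17 in knockout livers (median 12.12) and 11.90 to 12.44 in control livers (median 12.07), and by diet it was 11.86 to 12.14 on fish/fungal oil, 12.10 to 12.44 on canola oil and 11.90 to 12.17 on lard. The genotypes overlapped on every diet, and the averaged change was -0.02 ± 0.05 (limma adjusted p = 0.912). Fish/fungal oil against canola oil gave -0.18 ± 0.07 over both genotypes, which did not pass (limma adjusted p = 0.269). Its second probe set was dim, above the array median in 1 of 18 arrays. The genes most alike were Mospd2 (r = 0.83), Nbn, a DNA repair protein (r = 0.83), and Ppp2r1b, a phosphatase subunit (r = 0.82).

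Hsd17b13 and Hsd17b2 ran in opposite directions across arrays. Over the 18 arrays Pearson's r was -0.849 (two-sided permutation p = 2e-05, adjusted p = 0.00056 over the 28 pairs of the 8 genes) and Spearman's rho -0.697 (permutation p = 0.0021, adjusted p = 0.0357). Those permutations shuffled all 18 arrays without regard to group, so differences between group means enter these p-values. Without the 2 arrays farthest from the median of Hsd17b2, r was -0.595. Within groups, with group means removed, r was -0.759 (exact permutation p = 0.0106, adjusted p = 0.255), so that it did not pass there. Hsd11b1 and Hsd17b2 gave r = -0.713 (permutation adjusted p = 0.0126) and rho = -0.68 (adjusted p = 0.0357). For this pair r was -0.612 without the 2 arrays farthest from the median of Hsd11b1, and -0.565 within groups (exact permutation adjusted p = 0.349). Hsd11b1 and Hsd17b13 gave r = 0.63 (permutation adjusted p = 0.0482) and rho = 0.527 (adjusted p = 0.214). No other pair of the 28 passed by Pearson's r, and 0 passed within groups.

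Akr1c6 and Akr1c14 were called in none of the comparisons. Akr1c6, which encodes the NADPH-preferring type 5 17beta-hydroxysteroid dehydrogenase that makes testosterone from androstenedione, had a log2 level of 13.74 to 13.84 in knockout livers (median 13.76) and 13.72 to 13.89 in control livers (median 13.83). Its averaged genotype change was -0.03 ± 0.03 (95% interval -0.10 to 0.03, limma adjusted p = 0.605). On fish/fungal oil all 3 knockout pools lay below the controls (13.84, 13.76 and 13.74 against 13.85, 13.86 and 13.87), as did 5.18% of all genes. Akr1c14, a 3alpha-hydroxysteroid dehydrogenase, had a log2 level of 12.02 to 12.32 in knockout livers (median 12.16) and 11.92 to 12.54 in control livers (median 12.21). Its averaged change was -0.04 ± 0.07 (limma adjusted p = 0.812) and its change on fish/fungal oil against lard 0.12 ± 0.08 over both genotypes (adjusted p = 0.585). Akr1c19 had an averaged genotype change of -0.01 ± 0.08 (limma adjusted p = 0.961), at -0.15 on fish/fungal oil, -0.13 on canola oil and 0.25 on lard. The genes most alike were Ube2e1 (r = 0.83), Dnaic2 (r = 0.80) and Sult2a8 (r = 0.80) for Akr1c6, and Car3 (r = 0.75), Gdap10 and Coq10b (r = 0.73 each) for Akr1c14. For Hsd11b1 they were Fam120aos (r = 0.80), Ccl27a and Gm19950 (r = 0.79 each).

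**Figure D4:**
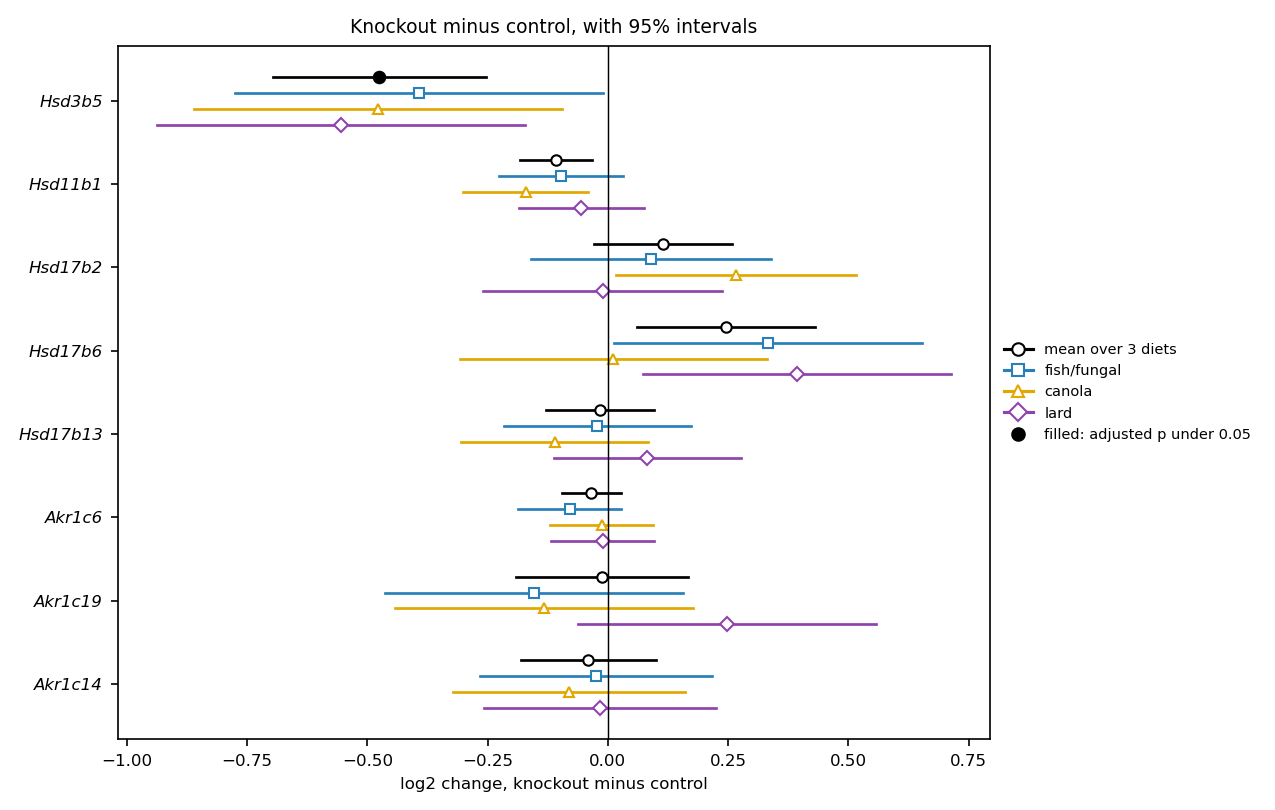
Log2 change, knockout minus control, of the 8 genes averaged over the diets (black circles) and within fish/fungal oil, canola oil and lard, with 95% intervals from limma. Filled symbols have an adjusted p under 0.05. The averaged effect on Hsd3b5 (-0.47) is the single filled symbol, and the interval of Akr1c6 is the narrowest of the averaged ones (-0.10 to 0.03).

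The 8 genes had a median genotype change of -0.03 (all genes: 0.00), with 2 of them above zero. On fish/fungal oil against lard over both genotypes their median was 0.08 (all genes: 0.00) with 5 above zero, and against canola oil 0.05 (all genes: 0.01) with 5 above zero. None of the 8 passed the F test for a genotype effect that differs with diet, and 0 of the 12578 genes did (0%), beside 242 (1.92%) at an unadjusted p under 0.05. In the order of the 6 group means, all 5 neighbouring pairs of groups overlapped for 6 of the genes. The exceptions were Hsd17b6 (knockout over control on fish/fungal oil) and Hsd17b2 (knockout over control on canola oil). Knockout pools lay above all controls for 5.72% of all genes on fish/fungal oil and for 7.04% on canola oil. The share of all genes whose neighbouring groups all overlap was not computed.

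Of 29 other steroid dehydrogenases and reductases listed, 23 were tested, 2 rose and 2 fell in knockout livers, with a median log2 change of -0.04. Of all genes tested 3.82% were called higher and 0.755% lower. Srd5a3, a polyprenol reductase of the 5alpha-reductase family, rose by 0.31 ± 0.06 (limma adjusted p = 0.00667) and Hsd17b12, a very-long-chain 3-ketoacyl-CoA reductase, by 0.20 ± 0.05 (adjusted p = 0.0386). Hsd3b2, of the family of Hsd3b5, fell by 0.31 ± 0.08 (limma adjusted p = 0.0371) and Rdh16f2, a retinol dehydrogenase relative of Hsd17b6, fell by 0.49 ± 0.13 (adjusted p = 0.0332). Cross-hybridization among Hsd3b genes, which are close in sequence, was not tested. On fish/fungal oil against lard over both genotypes only Hsd17b7, a 3-ketosteroid reductase of cholesterol synthesis, was called of the 23, and it fell by 0.48 ± 0.11 (limma adjusted p = 0.0248), beside 1.78% of all genes called lower.

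Among the other steps of steroid metabolism, 3 of 11 tested P450s that hydroxylate steroids rose in knockout livers and 2 fell, against the 3.82% of all genes called higher and 0.755% called lower. Cyp2b10 rose by 4.91 ± 0.28 on the log2 scale (limma adjusted p = 1.49e-08), Cyp3a11 by 0.38 ± 0.04 (adjusted p = 6.93e-06) and Cyp2c29 by 0.54 ± 0.06 (adjusted p = 6.04e-05). Cyp7b1, an oxysterol 7alpha-hydroxylase, fell by 0.63 ± 0.11 (limma adjusted p = 0.00345) and Cyp39a1, an oxysterol 7alpha-hydroxylase too, by 0.92 ± 0.24 (adjusted p = 0.035). Of 6 sulfation genes 1 rose, the estrogen sulfotransferase Sult1e1, by 1.41 ± 0.28 (limma adjusted p = 0.00679). None of 9 genes for steroid receptors, carriers and cofactor supply was called with genotype. The estrogen receptor gene Esr1 fell by 0.87 ± 0.14 on fish/fungal oil against lard in control livers (limma adjusted p = 0.00381). It was the 1 called of the 9 there, beside 0.62% of all genes called lower. In knockout livers none of the 9 was called, beside 0.461% of all genes. Over both genotypes 2 of the 9 were called lower against lard and 1 against canola oil, beside 1.78% and 0.692% of all genes. Of 13 genes induced by glucocorticoids 2 fell in knockout livers, Per1 by 0.43 ± 0.11 and Errfi1 by 0.35 ± 0.09 (limma adjusted p = 0.0313 and 0.0347). With genotype the log2 changes of the 13 ran from -0.43 to 0.62, with a median of -0.10. Mt2 alone was called on fish/fungal oil against lard in control livers, where it rose by 2.55 ± 0.55 (limma adjusted p = 0.0371), beside 0.0954% of all genes called higher. The changes of the 13 there ran from -0.64 to 2.55, with a median of -0.02. In knockout livers the change of Mt2 on that oil was 2.445 ± 0.545, just short of the threshold (limma adjusted p = 0.0566).

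Hsd3b5 is itself a male-biased liver gene. The lists of sex-biased genes were chosen with earlier results of these data known, so their counts are a description and not an independent test. Serpina4-ps1 and Nudt7 of the male-biased list were also picked above for likeness to Hsd3b5. Of 17 other male-biased genes tested, 7 fell in knockout livers and none was called higher, beside 0.755% of all genes called lower and 3.82% called higher. Their log2 changes ran from -1.86 to 0.28 with a median of -0.22, and the highest were those of Elovl3 (0.28 ± 0.15, limma adjusted p = 0.368) and Cyp4a12a (0.26 ± 0.12, adjusted p = 0.248), neither past the threshold. The 4 with the smallest adjusted p were Obp2a, an odorant-binding protein gene (-1.27 ± 0.20, limma adjusted p = 0.0012), Serpina12, which encodes vaspin (-1.10 ± 0.19, adjusted p = 0.00282), Cyp7b1 and Serpina4-ps1. Of 9 female-biased genes tested 3 rose (3.82% of all genes did) and none fell, with a median of 0.49: Cyp3a44 (0.49 ± 0.09, limma adjusted p = 0.00537), Atp6v0d2 (0.53 ± 0.11, adjusted p = 0.00693) and the glutathione transferase Gstt3 (0.89 ± 0.20, adjusted p = 0.0135). The lowest were Cux2 (-0.03 ± 0.06, limma adjusted p = 0.85) and Cyp17a1 (-0.02 ± 0.28, adjusted p = 0.982). Of 14 female-biased genes named on the array, 5 were too dim to test. With fish/fungal oil against lard 1 male-biased gene was called in each genotype. Obp2a rose in control livers by 2.95 ± 0.34 (limma adjusted p = 0.000179), beside 0.0954% of all genes called higher there. Serpina12 fell in knockout livers by 1.58 ± 0.33 (limma adjusted p = 0.0417), beside 0.421% of all genes called lower there.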

How the data were processed

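The authors deposited log2 expression values of 18 arrays, made by RMA (the submitters' processing notes name no version). The log2 scale was read from the values (2.41 to 14.9), and no value was missing. Array controls (64 of 45101 probe sets) were left out. By the annotation used 34945 probe sets carried 1 gene symbol, 932 carried several and 9160 were unlisted or without a symbol. RefSeq GRCm38.p6 gave current symbols by gene ID for 34741. Each gene took its probe set of highest mean, and it was tested if that lay above the array median in at least 3 of 18 arrays (12578 of 18193 genes).

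Tests used limma 3.58.1 in R 4.3.3: 6 group means were fitted with an intensity trend, and the fit was tested on simulated data. The averaged knockout effect weights the 3 diets equally. Intervals are at 95%. Correlations used 100000 permutations, or all 46656 within groups. Replicate numbers were not taken as pairing arrays: every correlation of same-numbered deviations was over 0.1 in 2 of 15 pairs of groups (range -0.397 to 0.458). The number of arrays limits the precision.

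Members and gene lists were chosen with earlier results of these data known. The members were named in every comparison. From each of 7 pathway lists up to 4 genes past the threshold were named for the averaged knockout effect, and up to 3 in each genotype when fish/fungal oil was set against lard. Likeness took the 3 genes of highest r for each member. The 9 cell type lists are given as counts. Lists share genes: 8 of the 16 listed P450s occur in a second list, and so do 6 of 20 female-biased genes and 2 of 22 male-biased genes. Cyp39a1, Hsd17b7, H6pd, Elovl3, Cyp4a12a and the cell type markers were named after their values were seen. Alternatives covered normalization, centring, filter, probe sets, trend, array weights, the samples fitted, the replicate block and each array left out.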

Additional observations from a re-analysis of the deposited data

How the results depend on the processing

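Member changes were followed in the averaged knockout effect, in fish/fungal oil against lard within each genotype, and in the comparisons added over both genotypes. The other comparisons were followed only by the number of members called. Arrays left out aside, 386 member changes kept their direction and their side of the threshold, 1 lost its call and 5 turned sign near zero, none of the 5 called. Averaging every probe set of a gene left 1 member called on fish/fungal oil against lard over both genotypes, since Hsd17b6 then changed by 0.26 (adjusted p = 0.0632, against 0.00623 to 0.0157 under the others). Array weights gave 0.011 for Hsd17b13 and 0.050 for Akr1c19 with genotype, and -0.011 for Akr1c6 in knockout livers and 0.010 for Hsd17b13 in control livers on fish/fungal oil against lard. Centring gave 0.0091 for this last change. With the replicate block no member's call changed (Hsd3b5 adjusted p = 0.0239).

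Leaving out each array in turn, the members called numbered 0 to 1 on fish/fungal oil against lard in control livers, 0 to 1 against canola oil in control livers and 1 to 2 against canola oil over both genotypes. Uncalled changes that crossed zero ran, with genotype, from -0.041 to 0.017 for Hsd17b13, from -0.064 to 0.030 for Akr1c19 and from -0.094 to 0.010 for Akr1c14. On fish/fungal oil against lard they ran from -0.25 to 0.080 for Hsd3b5 and from -0.026 to 0.022 for Akr1c6 in knockout livers, and from -0.064 to 0.050 for Hsd17b13 and from -0.027 to 0.28 for Akr1c14 in control livers. Against canola oil over both genotypes they ran from -0.15 to 0.068 for Hsd3b5 and from -0.017 to 0.14 for Akr1c14. The cause was not tested.

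Over all alternatives the genes called, of all tested, numbered 371 to 846 for the averaged knockout effect (575 in the report). They numbered 13 to 43 within fish/fungal oil (37 in the report), 1 to 90 within canola oil (8) and 30 to 182 within lard (124). On fish/fungal oil against lard they numbered 12 to 116 in knockout livers (58), 41 to 122 in control livers (90) and 199 to 369 over both (292). Against canola oil they numbered 5 to 30 in knockout livers (20), 19 to 50 in control livers (33) and 76 to 160 over both (124). Canola oil against lard gave 0 to 4 (0), and the interaction 0 to 1 (0).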
